A study of Homo sapiens with 4 samples.

Results

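The human genome was divided into fixed tiles of 100 kb, and 210 of these tiles held at least 4 regions where the chromatin remodelling subunit BAF45D was found in neural stem cells (NSC) and not in embryonic stem cells (ESC). Together the 210 tiles held 912 such regions, and these clustered regions are the subject here. They were chosen by measured values. The peaks of 4 libraries on chromosomes 1 to 22 were merged where they overlapped by at least 1 bp, which gave 43134 regions. A region was called NSC-only where both NSC libraries and neither ESC library had a peak, and 13247 regions (30.7%) met this rule. Of the NSC-only regions, 912 (6.88%) lay, by their midpoint, in a tile with 4 or more of them. The lack of ESC peaks at these regions and their crowding are therefore the selection and are described without a test. Peak strength entered through the authors' peak calls, while genes, gene positions and promoter sequence were not part of the selection.

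BAF45D was mapped by CUT&Tag, in which an antibody leads a transposase to the DNA beside its target so that fragments from that place can be sequenced. Each of the 4 assays used 100000 cells and a rabbit antibody against BAF45D. The ESC1 and ESC2 libraries came from H9, an established human embryonic stem cell line, grown in mTeSR1 on Matrigel. NSC1 and NSC2 came from spinal cord neural stem cells made from H9 by 10 days in N2B27 medium with LDN-193189 at 100 nM, SB431542 at 10 µM, CHIR-99021 at 4 µM, FGF2 and FGF8 at 100 ng/ml each and DAPT at 10 µM, with Y-27632 at 10 µM when cells were split. A maintenance medium with SB431542 at 2 µM, CHIR-99021 at 3 µM and Hh-Ag 1.5 at 200 nM followed, and last came N2B27 with FGF2 and EGF at 20 ng/ml each. The labels attach this culture text to all 4 libraries alike, so the groups rest on the sample titles and the named cell types, and ESC are taken as the H9 cells before induction. All cells descend from 1 line, and the labels do not say whether the libraries of a cell type came from separate cultures, so their spread may be technical.

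BAF45D is the product of DPF2 and a subunit of the BAF (SWI/SNF) complex, which moves nucleosomes and opens chromatin at enhancers and promoters. Many developmental genes are controlled by several enhancers spread through their introns and flanks, and groups of such elements are a known feature of genes that mark a cell type. The agents of the neural induction act on several signalling routes. LDN-193189 and SB431542 inhibit BMP and TGF-beta receptors, and CHIR-99021 activates WNT signalling. Hh-Ag 1.5 activates hedgehog signalling, and DAPT blocks the gamma-secretase step of Notch signalling. Genes of these routes are counted below, but a link between the agents and the clusters was not tested.

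Of the 912 clustered regions, 470 (51.5%) lay inside a coding gene and away from its outer ends, though some of these covered a start within the gene. The regions' own sequences were not used here. In all, 78 overlapped the window of an annotated start, and 6 windows in 5 of the genes described below show how different such places were. Each window runs from 250 bases before to 50 bases after a RefSeq transcription start (GRCh38.p14, 300 bases, 5′ to 3′ on the named strand), and capitals mark the bases inside a peak of both NSC1 and NSC2.
SMAD6 chr15:66701986-66702285 plus strand: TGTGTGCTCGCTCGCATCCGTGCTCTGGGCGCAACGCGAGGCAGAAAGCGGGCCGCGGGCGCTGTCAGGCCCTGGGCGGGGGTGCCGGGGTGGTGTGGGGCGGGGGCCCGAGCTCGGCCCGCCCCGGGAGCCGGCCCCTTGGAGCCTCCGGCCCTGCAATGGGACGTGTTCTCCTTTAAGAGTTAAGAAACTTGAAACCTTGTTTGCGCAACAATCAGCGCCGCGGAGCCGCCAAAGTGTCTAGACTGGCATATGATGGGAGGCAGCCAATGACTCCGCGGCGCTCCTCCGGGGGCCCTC
PRTG chr15:55743103-55743402 minus strand: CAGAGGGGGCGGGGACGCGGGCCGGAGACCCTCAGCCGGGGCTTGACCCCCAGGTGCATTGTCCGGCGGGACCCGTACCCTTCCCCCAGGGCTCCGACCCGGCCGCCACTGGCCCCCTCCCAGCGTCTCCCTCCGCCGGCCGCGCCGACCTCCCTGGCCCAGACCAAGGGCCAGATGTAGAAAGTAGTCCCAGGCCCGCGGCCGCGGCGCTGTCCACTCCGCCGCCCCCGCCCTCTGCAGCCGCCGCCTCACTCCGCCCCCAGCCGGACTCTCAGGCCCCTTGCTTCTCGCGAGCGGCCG
ETV1 chr7:13989617-13989916 minus strand: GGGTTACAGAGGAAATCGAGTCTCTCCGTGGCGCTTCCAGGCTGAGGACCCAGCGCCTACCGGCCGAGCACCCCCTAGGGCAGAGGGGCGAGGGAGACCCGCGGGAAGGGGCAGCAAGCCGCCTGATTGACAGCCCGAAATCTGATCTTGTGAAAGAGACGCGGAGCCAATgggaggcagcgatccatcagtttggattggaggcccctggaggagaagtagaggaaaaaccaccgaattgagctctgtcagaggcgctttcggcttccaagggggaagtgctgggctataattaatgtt
TRIM2 chr4:153204193-153204492 plus strand: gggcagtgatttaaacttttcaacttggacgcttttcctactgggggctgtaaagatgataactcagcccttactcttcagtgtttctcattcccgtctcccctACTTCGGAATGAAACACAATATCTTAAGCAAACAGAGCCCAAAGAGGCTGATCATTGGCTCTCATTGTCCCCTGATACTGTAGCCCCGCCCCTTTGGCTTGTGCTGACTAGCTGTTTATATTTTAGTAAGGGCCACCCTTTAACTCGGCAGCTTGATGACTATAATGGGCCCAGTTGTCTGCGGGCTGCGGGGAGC
TRIM2 chr4:153257129-153257428 plus strand: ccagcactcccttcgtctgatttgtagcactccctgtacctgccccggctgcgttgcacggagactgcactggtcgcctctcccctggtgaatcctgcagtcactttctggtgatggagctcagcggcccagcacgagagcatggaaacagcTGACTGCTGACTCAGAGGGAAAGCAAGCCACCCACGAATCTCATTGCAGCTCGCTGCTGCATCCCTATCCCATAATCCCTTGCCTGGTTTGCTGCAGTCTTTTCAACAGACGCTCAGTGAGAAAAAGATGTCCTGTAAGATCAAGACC
ANK2 chr4:112860737-112861036 plus strand: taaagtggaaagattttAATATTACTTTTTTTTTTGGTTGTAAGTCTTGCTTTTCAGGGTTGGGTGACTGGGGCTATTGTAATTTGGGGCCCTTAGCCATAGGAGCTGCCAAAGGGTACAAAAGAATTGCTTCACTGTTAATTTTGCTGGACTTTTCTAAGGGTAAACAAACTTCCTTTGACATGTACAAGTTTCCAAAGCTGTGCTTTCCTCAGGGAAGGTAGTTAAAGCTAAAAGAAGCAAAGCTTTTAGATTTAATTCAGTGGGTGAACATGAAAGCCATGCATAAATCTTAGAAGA
The SMAD6 and PRTG windows lay wholly within peaks of both NSC libraries and were rich in G and C, at 68.0% and 76.3%, with 29 and 33 CpG. The ETV1 window was covered over 171 bases and held 17 CpG. The TRIM2 windows belong to inner starts, 52.2 and 105 kb into the gene, and were covered over 196 and 148 bases with 7 and 10 CpG. The ANK2 window, at a start about 155 kb into the gene, was covered over 283 bases, held 37.3% G and C and had no CpG.

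The libraries were unequal in depth and in peak number. The file headers gave 20734829 and 18953543 tags for ESC1 and ESC2 and 5566407 and 5377831 for NSC1 and NSC2, while the lists held 4054, 12159, 28887 and 23942 peaks in that order. A missing ESC peak means that the signal of that library did not pass the authors' threshold. As a check of the labels, markers were searched for peaks within 1 kb of a gene end. Of 11 markers of neural stem cells and spinal cord, SOX1, NES, HOXC6, NKX6-1 and OLIG2 had one in both NSC and in neither ESC library, HOXA5 in NSC1 alone and SOX2 in all 4, while PAX6, MSI1, FABP7 and HOXB4 had none. Of 5 pluripotency markers, LIN28A had one in all 4 and DNMT3B in ESC2 alone, while POU5F1, NANOG and CRIPTO had none, so the peaks mark the labelled cell types only in part. Libraries made with an untargeted antibody were not analysed here, so peaks were not set against the background of the assay.

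The clusters were the upper end of a continuous distribution of crowding. At least 1 NSC-only region was found in 9394 tiles, of which 6599 held 1 and 2019 held 2. Just outside the rule were 566 tiles with 3, and just inside it 156 tiles with 4. A further 40 tiles held 5, 11 held 6, 2 held 7 and 1 held 8. For the opposite class, 716 regions with a peak in both ESC libraries and neither NSC library, 11 tiles held 4 or more and the fullest held 7. Which tiles qualified depended on the libraries used: 317 tiles would qualify without ESC2, 558 without NSC1 and 954 without NSC2, since leaving a library out loosens the rule, against 210 without ESC1.

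Within a dense tile the members were spread out. The median distance between the midpoints of neighbouring members was 12.6 kb, the range over 702 such gaps was 0.457 to 78.7 kb, and 111 gaps were under 2 kb. From the first to the last member a tile's cluster spanned a median of 60.2 kb (13.7 to 98.1 kb). The 393 distinct tiles that adjoined a dense tile without being dense held a mean of 0.812 NSC-only regions, against 0.432 over all 28535 tiles that were not dense. The latter include the 393 and every tile up to the last region of each chromosome, also those where no library had a peak. In 191 of the 393 there was none. Another 11 pairs of dense tiles adjoined each other. A grid moved by 50 kb gave 224 dense tiles with 971 regions, but only 414 of the 912 members (45.4%) were among them, so the membership of many tiles belongs to the grid used here.

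ZNF608, which encodes a zinc finger protein, lay in the fullest tile. The tile, chr5:124600001-124700000, held 8 members, 6 of them inside ZNF608 and the other two beyond its end. No region of the tile had a peak in ESC1, 1 had a peak in ESC2, 10 in NSC1 and 11 in NSC2. The strength of a peak is given here as the authors' −log10 q, which measures a peak against the local background of its own library and serves to describe, rank or filter the peaks of a list. Values of different libraries are not on a common scale. The 6 members in the gene had −log10 q values of 3.68 to 35.06 in NSC1 (median 15.04) and 3.97 to 28.85 in NSC2 (median 13.80). The highest values in both libraries came from neighbouring members at 86.0 and 78.0 kb from the gene start, at 35.06 and 17.05 in NSC1 and 23.91 and 28.85 in NSC2. Near the gene start, at 0.438 kb, a peak was present in NSC1 alone, with a −log10 q of 4.21.

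TRIM2 encodes a ubiquitin ligase of neurons that acts on neurofilament light chain. Its tile on chromosome 4 (153200001 to 153300000) held 7 members, all inside the gene, and 8 regions had a peak in NSC1, 8 in NSC2 and 0 in ESC1 or ESC2. The members lay 52.2 to 106 kb from the gene's first start and included the inner starts whose sequences are printed above. The member over the first of these (153204279 to 153204541) had −log10 q values of 11.73 in NSC1 and 7.58 in NSC2, and the member over the other (153257253 to 153257636) had 3.28 and 7.41. The weakest TRIM2 member, at 54.6 kb, was close to the threshold in both libraries, at 1.66 and 1.67. At the gene's first start, outside the dense tile, lay another NSC-only region with values of 4.98 and 5.00.

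MAML2, a mastermind-like coactivator of Notch transcription complexes, held 12 members, more than any other coding gene. They filled 2 adjoining tiles in the 3′ part of the gene, with 7 and 5 members, between 182 and 331 kb from the start of a gene of 367 kb. Over the whole gene 26 regions had a peak in NSC1 and 19 in NSC2, and none had one in ESC1 or ESC2. The members were of modest strength, with medians of 4.32 in NSC1 and 4.64 in NSC2 and highest values of 11.60 and 7.60. The strongest MAML2 region was not a member: an NSC-only region 35.7 kb from the start had values of 34.04 and 33.56 and fell in a tile with too few neighbours.

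ZBTB16 encodes PLZF, a BTB zinc finger repressor known from stem and progenitor cells, including those of the neural tube. It held 9 members in or at the gene, in adjoining tiles with 4 and 6, the last tile being shared with its neighbour NNMT. Within the gene 10 regions had a peak in NSC1, 11 in NSC2 and 0 in ESC1 or ESC2. The −log10 q of the 9 members ran from 2.38 to 21.62 in NSC1 (median 7.68) and from 3.20 to 15.58 in NSC2 (median 5.40), and the same member, at chr11:114197845-114198509, was the highest in both.

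ZEB2, a zinc finger homeobox repressor that binds SMAD proteins and acts in neural development, held 6 members between 39.6 and 92.8 kb from its start. Here ESC2 was not silent: the gene had 3 regions with an ESC2 peak and 0 with an ESC1 peak, beside 11 in NSC1 and 8 in NSC2. One of the ESC2 peaks lay outside the dense tile, in a region 9.35 kb from the start with peaks in both NSC libraries too. Its −log10 q values were 5.77 in ESC2, 12.57 in NSC1 and 7.71 in NSC2. Another lay inside the tile at 40.4 kb, next to the member at 39.6 kb, with 3.74 in ESC2, 3.63 in NSC1 and 1.57 in NSC2. The last, also in the tile, at 46.0 kb, was in ESC2 alone (3.19). The strongest member had 25.89 in NSC1 and 17.14 in NSC2. The ZEB2 cluster was also the least stable of the 6 genes: with a grid moved by 50 kb no tile over the gene held 4 NSC-only regions.

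SMAD6, an inhibitory SMAD that limits BMP signalling, was the shortest of these genes at 80.6 kb and had members at its start as well as inside. The midpoint of the member that covered the whole window printed above lay at -0.294 kb relative to the start, and that of another at -1.04 kb. The remaining 4 of its 6 members lay 9.80 to 72.2 kb into the gene. In its tile 7 regions had a peak in NSC1, 6 in NSC2 and 0 in ESC1 or ESC2. The values were low and even, from 4.37 to 6.16 in NSC1 and from 2.39 to 6.92 in NSC2. With every list limited to −log10 q of at least 5, which is a different limit in libraries of different depth, no clustered region remained in SMAD6, ZEB2 or MAML2, while ZNF608 kept 5, TRIM2 4 and ZBTB16 4.

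**Figure D1:**
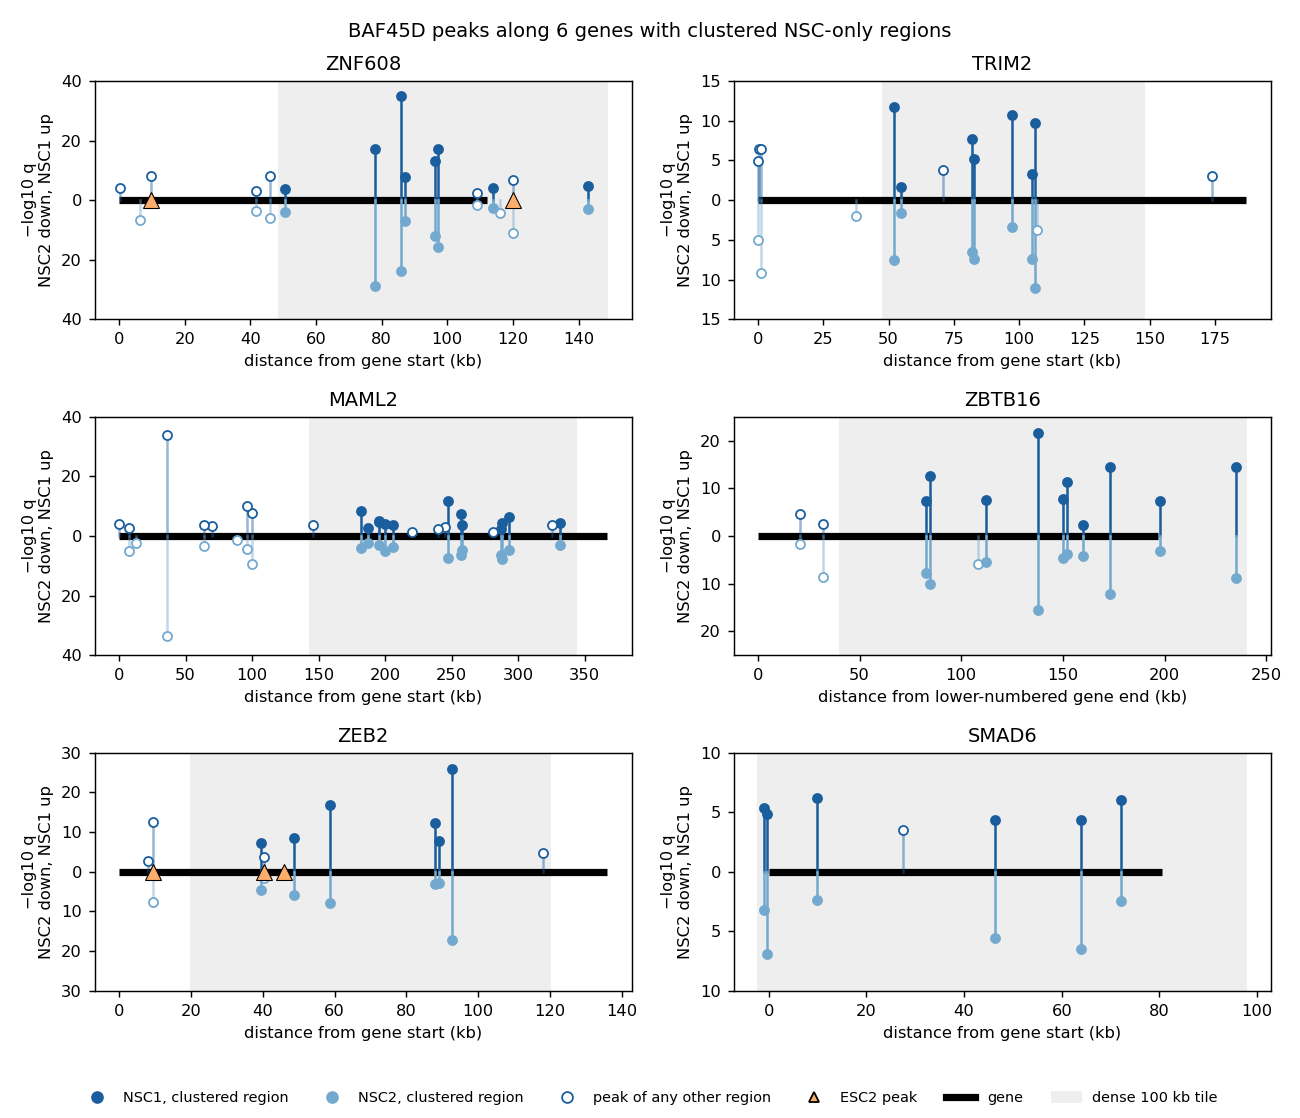
Each panel shows 1 gene (black bar) with the distance from its start in kb on the horizontal axis (for ZBTB16, from its lower-numbered end, because the strand was not in the table used). Stems give the −log10 q of each peak in NSC1 (up) and NSC2 (down), filled for clustered NSC-only regions and open for all other regions, orange triangles mark ESC2 peaks, and grey bands are dense tiles. Members lay away from the first starts of ZNF608, TRIM2, MAML2 and ZEB2, though some covered inner starts of TRIM2. Those of SMAD6 began at its start. ZNF608, TRIM2 and MAML2 also held NSC-only regions nearer the start, outside the dense tiles.

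The other tiles among the 15 with the most members each held 6, except that of JAG1 with 5. ANK2, which encodes an ankyrin that ties membrane proteins to the cytoskeleton, had 6 members within 35.5 kb, and their median gap of 0.585 kb was the tightest of these tiles. Their −log10 q values were 1.33 to 25.19 in NSC1 (median 15.53) and 6.20 to 19.33 in NSC2 (median 13.52). ANK2 was the single gene to keep a dense tile, with 4 regions, when every list was cut to the 4054 strongest peaks, the length of the ESC1 list. PDGFC, a ligand of PDGF receptors, held 5 members in its gene, with medians of 8.31 and 8.81. SKAP1, an adaptor protein known from T cells, held 10 over 2 adjoining tiles, with medians of 8.77 and 6.95.

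SEMA3C, a secreted semaphorin that guides axons and migrating cells, also held 10 members over adjoining tiles. Their values in NSC1 ran from 3.17 to 45.11 and in NSC2 from 1.80 to 39.70, and the highest in both came from the same region, 38.7 kb from the gene start. PRTG, a cell surface receptor of the immunoglobulin superfamily known from the early neural tube, held 9, from the start (12.52 in NSC1 and 9.33 in NSC2 for the member over the printed window) to 90.5 kb into the gene (20.17 and 24.05). DACH1, a transcriptional corepressor, and RAPGEF5, an exchange factor for Rap proteins, held 8 each, in 2 adjoining tiles of 4. Of the 10 genes with the most members, MAML2, PRTG, TRIM2, ZBTB16 and SMAD6 had no region with a peak in either ESC library. SEMA3C, SKAP1, DACH1 and RAPGEF5 had 1 each with an ESC2 peak, and ANK2, over its whole 678 kb, had 7 with an ESC2 peak and 1 with an ESC1 peak. ZEB2 and ZNF608 tied with ANK2 and SMAD6 at 6 members and were left out of the 10 by alphabetical order. They had 3 and 1 regions with an ESC2 peak.

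The remaining tiles of this group held CUEDC1 and MRPS23, LRATD2, PLB1, and EMP1 and GSG1, and in these the members were less tied to 1 gene. Only 1 of the 6 members lay at EMP1, a membrane protein gene, 1 in GSG1, and the other 4 lay outside genes. At LRATD2 likewise 4 of 6 were outside genes. In all 15 tiles ESC1 had no peak, ESC2 had a peak in 1 region of the ZNF608, ANK2, CUEDC1 and JAG1 tiles and in 2 of the ZEB2 tile, and NSC1 and NSC2 had 6 to 11 regions each.

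**Figure D2:**
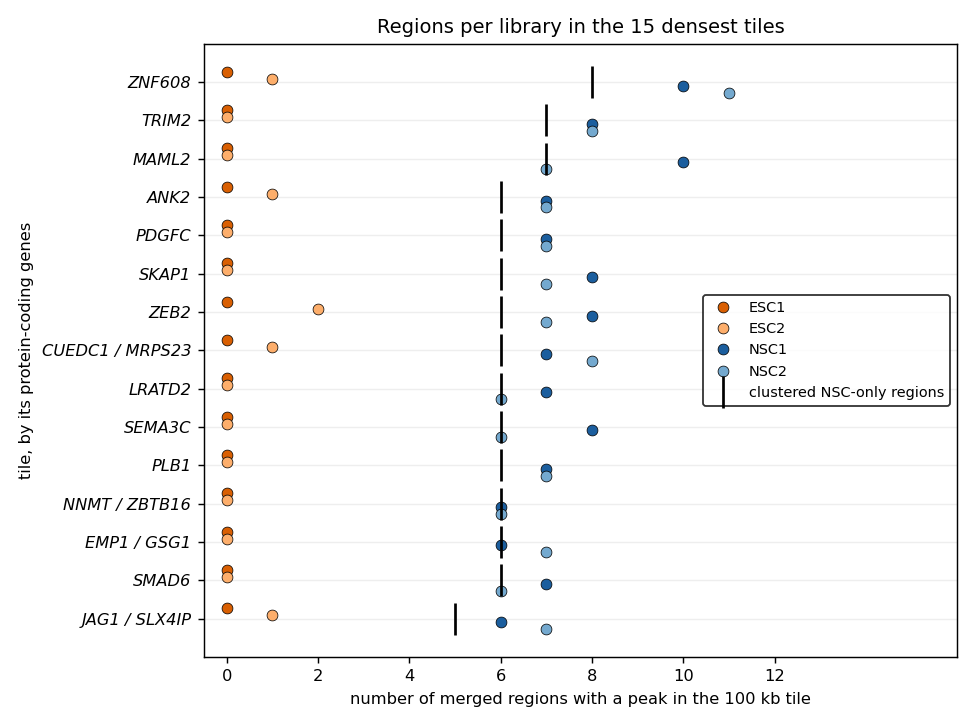
The horizontal axis counts the merged regions with a peak in each library within a 100 kb tile, for the 15 tiles with the most clustered regions, named by their protein-coding genes; the black stroke is the number of clustered NSC-only regions. ESC1 stood at 0 in all 15 tiles, ESC2 at 0 to 2, and the NSC libraries at 6 to 11.

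Over all 210 dense tiles, the ESC1 library had a peak in 26 regions and ESC2 in 105, while NSC1 had a peak in 1153 and NSC2 in 1052. Besides the 912 members, the tiles held 274 regions with a peak in 1 NSC library alone, 183 of them in NSC1 and 91 in NSC2, and 48 regions with peaks in both NSC libraries and at least 1 ESC library. No ESC peak of either library occurred anywhere in 130 of the 210 tiles (61.9%, 95% Wilson interval 55.2 to 68.2). In tiles with 1 to 3 NSC-only regions the share was 64.0% (63.0 to 64.9). Both groups of tiles were chosen by regions without ESC peaks, so these shares are a description, and no difference between the groups was tested. Intervals here and below cover counting error only, and regions of a tile are not independent of each other.

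The clustered regions lay inside genes more often than the other NSC-only regions did. Of the 912, 470 lay inside a protein-coding gene (51.5%, 48.3 to 54.8), against 37.9% (37.1 to 38.8) of 12335 NSC-only regions elsewhere and 14.5% (12.8 to 16.4) of 1422 regions with a peak in all 4 libraries. Within 1 kb of either end of a coding gene lay 13.9% (11.8 to 16.3) of the clustered regions, 22.4% (21.7 to 23.1) of the others and 62.1% (59.5 to 64.6) of those in all 4 libraries. The gene table gave only the ends of genes, so exons and introns were not told apart. A region over a start within a gene counted as inside the gene. The difference at gene ends depended on ESC2: without that library the shares were 28.0% and 30.3%, while inside genes they were 43.5% and 34.2%.

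The share inside genes was not even across the clusters. It was 44.5% (42.2 to 46.9) for regions of tiles with 3, just outside the rule, and 44.7% (40.9 to 48.6) for tiles with 4, so no step occurred at the threshold. It was 63.0% (56.1 to 69.4) in tiles with 5 and 73.9% (63.8 to 81.9) in the 14 tiles with 6 or more. The share outside genes was 39.4% in tiles with 4 and 17.0% in tiles with 6 or more.

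**Figure D3:**
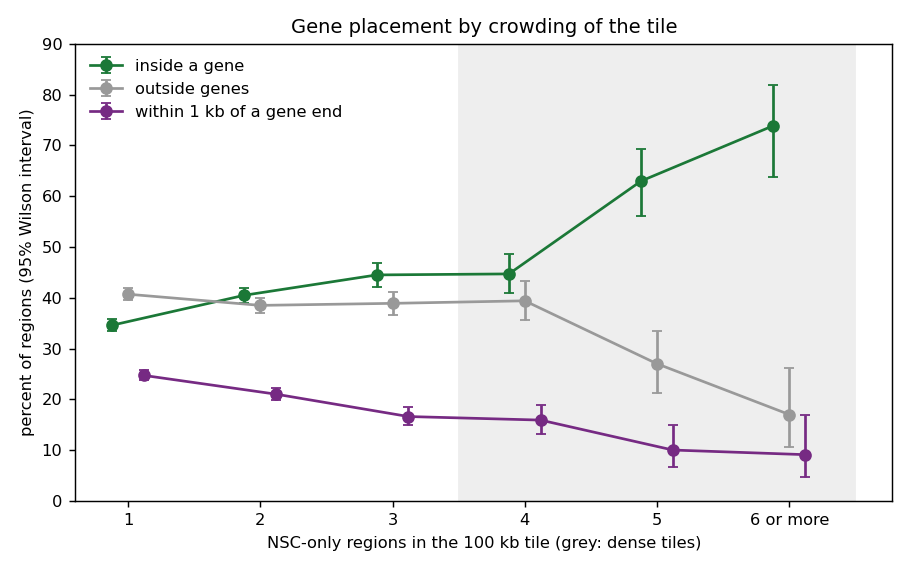
The percent of NSC-only regions inside a coding gene, outside genes or within 1 kb of a gene end is plotted against the number of NSC-only regions in their tile, with 95% Wilson intervals; the grey band marks the dense tiles. The share inside genes was 34.6% in tiles with 1 region and 73.9% in tiles with 6 or more.

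Many clusters were clusters within a single gene. In 83 of the 210 tiles every member lay in 1 coding gene. Most tiles held few genes: 46 had no coding gene, 104 had 1, 28 had 2 and 32 had 3 or more. In all, 241 of 19126 coding genes (1.26%) had a member in the gene or within 1 kb of an end, 89 of them had 4 or more and 30 had 5 or more. The median length was 303 kb for the 89 genes with 4 or more members, 53.3 kb for all 241 and 24.5 kb for all coding genes. A long gene has more room for 4 regions, and coding genes with an NSC-only region but no member had a median length of 64.6 kb.

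Along genes, a smaller share of the clustered regions than of the other NSC-only regions lay near the 5′ end. Genes were divided into 5 segments of equal length, numbered from the 5′ end. Of 449 members that overlapped 1 coding gene of known strand, 27.8% (23.9 to 32.2) lay in segment 1, against 42.9% (41.6 to 44.2) of 5495 other NSC-only regions. Segment 1 was still the fullest for the members, as segments 2, 3, 4 and 5 held 18.9%, 19.4%, 19.2% and 14.7% of them. In genes of at least 100 kb the shares in segment 1 were 19.8% (15.9 to 24.4) and 27.4% (25.9 to 28.9). Segments 2, 3 and 4 of these long genes held 22.2%, 21.3% and 21.9% of the members, and segment 5 held 14.7%.

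**Figure D4:**
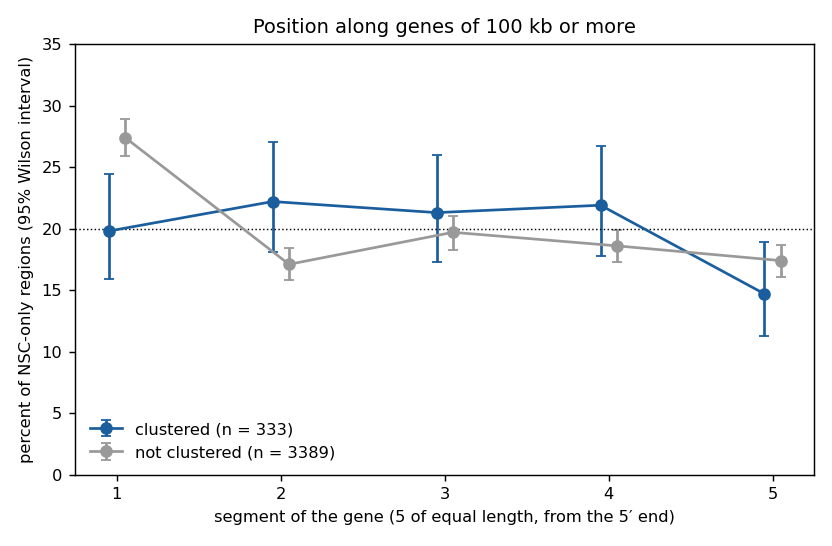
The percent of NSC-only regions in each of 5 equal segments of coding genes of 100 kb or more, counted from the 5′ end, is shown for 333 clustered and 3389 other regions, with 95% Wilson intervals and a dotted line at an even spread. Segments 1 to 4 held 19.8 to 22.2% of the clustered regions each, while 27.4% of the others lay in segment 1.

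Annotated start windows were touched by few members. Of the 912, 78 (8.55%, 6.91 to 10.5) overlapped the 300 base window of a coding gene's start, against 17.7% (17.1 to 18.4) of the other NSC-only regions. These 78 reached 95 of 21041 windows (0.451%), in 84 genes. The 95 windows had a median of 67.7% G and C and a CpG observed over expected ratio of 0.87. The medians were 69.3% and 0.89 for 2806 windows under other NSC-only regions, and 62.7% and 0.74 for all windows.

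Short motifs were counted in these windows on both strands as a description of sequence, not of binding. No interval was computed for these shares, and with 95 windows their differences from the other NSC-only windows may be counting error. The ETS core CCGGAAG was found in 28 of the 95 windows (29.5%), in 21.2% of the windows under other NSC-only regions and in 12.9% of all windows. CCAAT was found in 44.2%, 35.9% and 34.4% in that order, and the GC box GGGCGG in 71.6%, 78.4% and 56.6%. The AP-1 motif TGANTCA occurred in 3.16%, 3.71% and 6.09%, the SOX motif ACAAAG in 7.37%, 8.55% and 13.6%, and the homeodomain motif TAATTA in 1.05%, 1.10% and 3.45%. In the printed windows, SMAD6 held 3 GC boxes and 1 CCAAT, and PRTG held 4 GC boxes. The first of the TRIM2 windows held 1 GC box and 1 CCAAT, and the other held 1 AP-1 match. The ETV1 window held 2 CCAAT and 1 TAATTA. Of these, only 1 CCAAT lay in the stretch covered by peaks of both NSC libraries. The ANK2 window held none of the 6 motifs. Of 1454 miRNA hairpins on these chromosomes, 18 lay in a dense tile and 2 were overlapped by a member, those of MIR3178 and MIR4651.

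Both the members and the other NSC-only regions had to pass the peak calls of NSC1 and NSC2, so their strengths are a description. The median −log10 q was 7.29 in NSC1 (range 1.33 to 46.9) and 6.05 in NSC2 (1.34 to 54.4), and for other NSC-only regions it was 6.84 and 5.78. The authors' fold enrichment over the local background had medians of 5.88 and 5.62 for members and 6.08 and 5.79 for the others, and the median widths were 460 and 472 bp. Regions with a peak in all 4 libraries stood higher, at 17.8 in NSC1 and 16.1 in NSC2. Between the NSC libraries the ranks of members went together (Spearman's rho 0.64 over 912 regions, and 0.59 over the others; across regions, which are not replicates). The summits in NSC1 and NSC2 lay a median of 39.0 bp apart, and 710 members (77.9%) had summits within 100 bp.

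**Figure D5:**
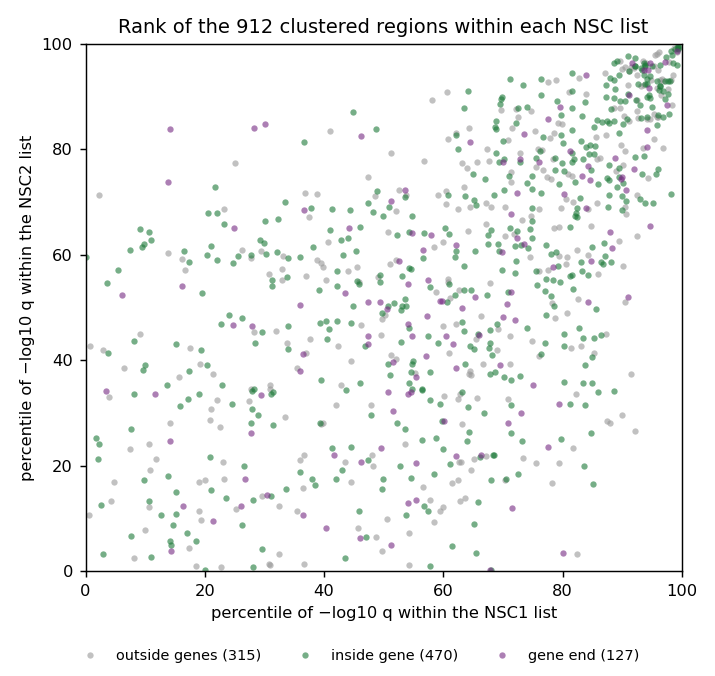
Each point is 1 of the 912 clustered regions, with the percentile of its −log10 q within the NSC1 list on the horizontal axis and within the NSC2 list on the vertical axis, coloured by gene placement. The median percentiles were 65.5 in NSC1 and 58.3 in NSC2, and regions at gene ends, inside genes and outside genes overlapped over most of the range.

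The 5 strongest members, by mean rank within the NSC1 and NSC2 lists, were a group of single strong peaks in different tiles. The first, inside ETV1, an ETS factor downstream of FGF signalling, was at chr7:13919980-13920702 with −log10 q values of 46.54 in NSC1 and 54.40 in NSC2. ETV1 held 3 further members, among them that over its printed start window, with 3.26 and 6.15. The second lay in CSRNP3, a nuclear protein gene, at chr2:165686634-165687906, with 45.22 and 52.53. The third lay in TENM2, a teneurin that acts in synapse adhesion, at chr5:167945501-167946150, with 46.86 and 40.93. The fourth was outside genes, 183 kb from TMEM200A, at chr6:130625843-130626605, with 43.59 and 41.16. The fifth was the SEMA3C region at chr7:80883242-80884047 named above.

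Genes were then grouped by pathway and by cell type in 22 lists. The lists were drawn up with results of these data known and include the 6 genes that name the clusters, so their counts describe the clusters and support nothing further. Against 1.26% of all coding genes, 31 of 593 listed genes (5.23%) had a member. The median gene length is given for the 6 lists with the highest shares, where it ranged from 3.79 to 184 kb, and for the lists without a member. Among regulators of neural progenitors (median 29.5 kb) 5 of 33 genes had members (15.2%). Among them were ZBTB16 and ZEB2, CDH2 (4 members), which encodes N-cadherin of the neuroepithelium, and VIM (2), an intermediate filament gene of progenitors. Among zinc finger and BTB repressors (median 170 kb) 4 of 30 had members, namely ZBTB16, ZEB2, ZNF608 and GLIS3, the last with 5.

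In the Notch pathway (median 26.3 kb) 3 of 32 genes had members. Besides MAML2 these were JAG1, a Notch ligand, with 3 members (3.33, 12.13 and 7.98 in NSC1, and 7.06, 9.67 and 6.38 in NSC2), and HES6, a helix-loop-helix gene, with 1 (5.94 and 2.57). No other listed receptor, ligand or target of the pathway had one. In the TGF-beta and BMP pathway 3 of 43 had members: the inhibitor SMAD6, the type I receptor BMPR1A with 3 (medians 8.12 in NSC1 and 8.36 in NSC2), and the ligand BMP7 with 1 (2.96 and 2.08). In the WNT pathway 2 of 52 had members, the corepressor TLE4 with 4 (medians 14.82 and 11.71) and the receptor FZD4 with 2 (6.78 and 4.86). ETV1 was the 1 gene of 30 in FGF and EGF signalling, GLI3, a transcription factor of the hedgehog pathway, the 1 of 18 in that list (4 members, medians 9.37 and 4.43), and TEAD1 the 1 of 21 in the Hippo list (5 members, medians 8.81 and 6.53). TEAD1 was less clear of ESC peaks, with 2 regions in ESC1 and 4 in ESC2.

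Among axon guidance genes (median 184 kb) 3 of 40 had members: SEMA3C, the ephrin receptor EPHA3 with 4 (medians 6.26 and 9.28) and the semaphorin coreceptor NRP2 with 4 (4.46 and 5.09). Among genes of the cytoskeleton and adhesion (median 122 kb) 3 of 37 had members, TRIM2, the filopodial myosin gene MYO10 with 5 and the laminin gene LAMC1 with 4. Of 30 genes of the BAF complex itself only ARID1B, a DNA-binding subunit, had members, 5 with medians of 12.10 in NSC1 and 12.93 in NSC2. MAP2, a microtubule protein of dendrites, was the 1 of 22 neuron genes (4 members, medians 13.14 and 11.33).

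The HOX genes, which give the spinal cord its segment identity, had members in 1 of their 4 clusters. The tile over HOXC4 to HOXC9 held 4 members and no ESC peak, with 6 regions in NSC1 and 4 in NSC2. The members at HOXC4 had −log10 q values of 8.82, 5.10 and 19.32 in NSC1 and 3.68, 7.81 and 14.17 in NSC2. In the annotation, where the 3 genes overlap, HOXC5 shares the first 2 of these and HOXC6 the first. Thus 3 of 39 HOX genes (median 3.79 kb) counted as having a member. None of 31 factors of spinal cord domains, 18 of retinoic acid signalling and 30 pluripotency genes had a member. The same held for 15 glial genes, 16 neural crest genes, 24 mesoderm and endoderm genes and 20 fibroblast genes. The median gene length of these 7 lists ranged from 5.55 to 37.4 kb. As only 1.26% of all coding genes had a member, a count of 0 in lists this short is uninformative. RXRB, of the retinoic acid list, overlapped a dense tile without having a member. Among 19 blood genes PTPRC had 2, with values of 3.00 to 5.39 in NSC1 and 4.33 to 6.11 in NSC2, and among 16 AP-1 factors ATF3 had 1 (6.81 and 11.27).

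Clusters without a coding gene made up 46 tiles with 190 members, and 34 of these tiles held a long noncoding RNA gene. Of the 315 members outside coding genes, 32.4% (27.5 to 37.7) lay in such an RNA gene, close to 30.0% (28.8 to 31.3) of the other NSC-only regions outside genes. Their median distance to the nearest coding gene was 76.9 kb, against 105 kb for the others. Of the gene-free tiles, 6 held 5 members each, and the 3 with the highest summed ranks of their members are described. One, 24.5 kb from GASK1B on chromosome 4, had a pair of strong neighbours with −log10 q values of 41.92 and 18.26 in NSC1 and 32.63 and 22.09 in NSC2, and 1 of its regions had an ESC1 peak. That nearest to SMLR1 on chromosome 6, at 127 kb, held the strong region 183 kb from TMEM200A and another with 23.55 and 13.15, and none of its regions had an ESC peak. The third was 395 kb from FAM110B, also without an ESC peak.

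By chromosome, the share of NSC-only regions that were clustered was highest on chromosome 20 (33 of 295, 11.2%), followed by chromosome 5 (88 of 889, 9.90%) and chromosome 15 (37 of 393, 9.41%). It was lowest on chromosome 14 (9 of 403, 2.23%) and chromosome 21 (4 of 138, 2.90%). Over all these chromosomes it was 6.88%. The number of tiles behind the small shares was 2 and 1, and behind those of chromosomes 20 and 15 it was 8 each. Members of a tile enter together, which limits the precision of high and low shares alike.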

How the data were processed

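BAF45D CUT&Tag libraries of ESC (2) and NSC (2) were analysed from 1 deposited peak list each. Per the submitters' processing notes, the tools included Trimmomatic, FastQC and, with the build hg38, BWA (0.7.12). The file headers name MACS2 2.1.0.20150420, run on each library alone with no control, with q at most 0.05, a -100 bp shift and fragments extended to 200 bp. The deposited values are the pileup at the summit (a signal), −log10 p and −log10 q, and the fold enrichment, a ratio to the local background of the same library. They describe, rank or filter peaks within 1 list, so libraries were compared by the presence of peaks.

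Entries with the same start and end were joined and kept the strongest −log10 q. Regions, tiles and gene overlaps were computed with Python 3.11.15, numpy 2.4.6, pandas 2.3.3 and scipy 1.17.1, and figures with matplotlib 3.10.9. The counting of regions and tiles was tested on simulated peak lists with known clusters. Genes and start windows came from RefSeq tables of GRCh38.p14, matched by symbol or gene ID; genes whose strand the tables lacked were left out of positions along genes. Regions less than 1 kb from the start or the end of a coding gene were placed at a gene end. No test was run on the clusters, since their selection used the measured peaks and each group has 2 libraries. Intervals, where given with a share, are 95% Wilson intervals.

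The members, the gene lists and the rules were chosen with earlier results of these data known. The rule for named genes took 6 genes that name the clusters, the genes of the 15 tiles with the most members, the 10 coding genes with the most, the 5 strongest members, up to 4 genes per list (more where a count of 5 or fewer is spelled out) and the 3 gene-free tiles with the most members, ties going, for tiles, to the highest sum of within-list percentiles and, for genes, to alphabetical order. A few further regions, such as the strongest in MAML2, were chosen after their values were seen. Tile size, minimum, overlap, peak strength and each library were varied in 16 alternatives.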

Additional observations from a re-analysis of the deposited data

How the results depend on the processing

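The direction of the comparison inside genes held under each setting for which both sets were counted, among them the limit on −log10 q (63.2% of clustered and 36.4% of other NSC-only regions), the shifted grid, other minimums and each library left out. The counts did not hold. Leaving out 1 library gave 210 to 954 tiles, 913 to 4352 regions, 43.5 to 51.5% inside genes and 13.9 to 28.0% at gene ends. A −log10 q of at least 5 in all lists left 35 tiles, 144 regions and 63.2% inside genes. Lists cut to equal length left 1 tile with 4 regions, 100% of them inside a gene and 0% at gene ends, which follows from cutting the NSC lists most. Tiles of 50 kb gave 60 tiles, 253 regions, 61.7% inside and 9.49% at ends. Tiles of 200 kb gave 605, 2795, 47.8% and 17.1%. A minimum of 3 gave 776 tiles, 2610 regions and 47.0% inside, and a minimum of 5 gave 54, 288, 66.3% and 9.72% at ends. Chains of at least 4 regions with gaps of 25 kb or less numbered 119, with 514 regions, 57.2% inside and 10.3% at ends. A gene-end window of 2.5 kb put 17.0% at gene ends. Counting regions under 2 kb apart once, chosen after seeing the data, left 143 tiles and 607 regions. An overlap of 100 bp, a shifted grid and chromosome X moved each of these values by less than the limits set (1.5 times for counts, the interval for shares). Of 15 alternatives, ZEB2 lost its cluster in 5, SMAD6 in 3, MAML2 in 2, and ZNF608, TRIM2 and ZBTB16 in 1 each, that of equal list length. No paired analysis was possible because no result comes from a test. NSC depth, at most 5566407 tags, and the authors' threshold limit which regions were called at all.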
